A study of Mus musculus with 5 samples.

Results

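The 10 genes described here encode the thin filament of heart muscle, and all probes carrying their symbols in the platform annotation were taken. These were the actin genes Actc1, Acta1 and Acta2, the troponin genes Tnnc1, Tnni1, Tnni3 and Tnnt1, the tropomyosin genes Tpm1 and Tpm2, and the capping protein gene Tmod1. They had 16 of the 25697 probes and are 10 of the 16593 named genes on the array. The material came from the mouse line HL-1, atrial cardiomyocytes that divide in culture, grown in Claycomb medium, and from the microvesicles that these cells release. Total RNA of microvesicles was run on 2 arrays, total RNA of the cells on 2 arrays, and microvesicle DNA, tailed with poly-T so that it could be labelled like RNA, on 1 array. The series compared what the vesicles carry with what the cells that release them contain. All material is from 1 cell line, and no treatment is named in the labels. Whether the replicates were separate cultures is not stated, so p-values reflect only how these arrays differ, possibly for technical reasons.

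The thin filament is a polymer of actin along which tropomyosin lies as a coiled coil, with a troponin complex at regular intervals. Troponin C binds calcium, troponin I holds the filament off in its absence, and troponin T ties the complex to tropomyosin. Tropomodulin caps the slow-growing, pointed end of the filament. Heart muscle uses different isoforms as it matures. Smooth muscle and skeletal actin and slow skeletal troponin I belong to the young heart in rodents, and cardiac actin and cardiac troponin I to the adult heart.

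Whole-array facts bear on each value below. The median over all probes of the raw signal lay between 62.6 and 70.2 on 4 arrays and stood at 90.9 on microvesicle RNA array 2. A probe counted as detected at a detection p under 0.01, and the lowest detected raw signal lay between 79.1 and 93.5 on 4 arrays and at 109.8 on microvesicle RNA array 2. Microvesicle RNA array 1 shared a chip with both cell arrays, and microvesicle RNA array 2 shared the other chip with the DNA array. Chip and vesicle preparation therefore cannot be told apart for microvesicle RNA array 2, and the values of array 1 are the within-chip comparison. The microvesicle RNA arrays stood apart from each other, with a median SD between them of 0.91 on the log2 scale over tested probes, against 0.11 between the cell arrays. Of 9 cardiomyocyte marker genes with a probe, 7 were detected on both cell arrays, while those of Ryr2 and Gata4 missed detection on all 5 arrays. Of 10 skeletal muscle and 7 fibroblast marker genes, 0 were detected on any of the 5 arrays. Of 5 endothelial marker genes 1, Tek, was detected on both cell arrays, with raw signals of 80.3 and 82.9, and on no other array.

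Detection of the 16 probes differed between the arrays. On each cell RNA array 11 were detected (background 16.3% and 14.1% of all probes on cell arrays 1 and 2). On microvesicle RNA array 1 there were 4 (background 7.88%) and on microvesicle RNA array 2 there were 10 (background 21.8%). The same 11 probes, of 7 genes, were on both cell arrays, and these 11 were the ones that entered the test, which took probes detected on at least 2 RNA arrays. They entered through the cells, so a difference towards lower vesicle values is partly built into their choice. The fair background is therefore the 3470 probes detected on both cell arrays. Of the 11, 4 were on both microvesicle arrays (background 44.1%), 3 on neither (background 30.3%) and 4 on array 2 but not array 1 (background 15.6%). The remaining 5 probes, of Acta1, Tnni1, Tnni3 and Tpm2, were not tested. The plot of raw signals by array shows all 16.

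**Figure D1:**
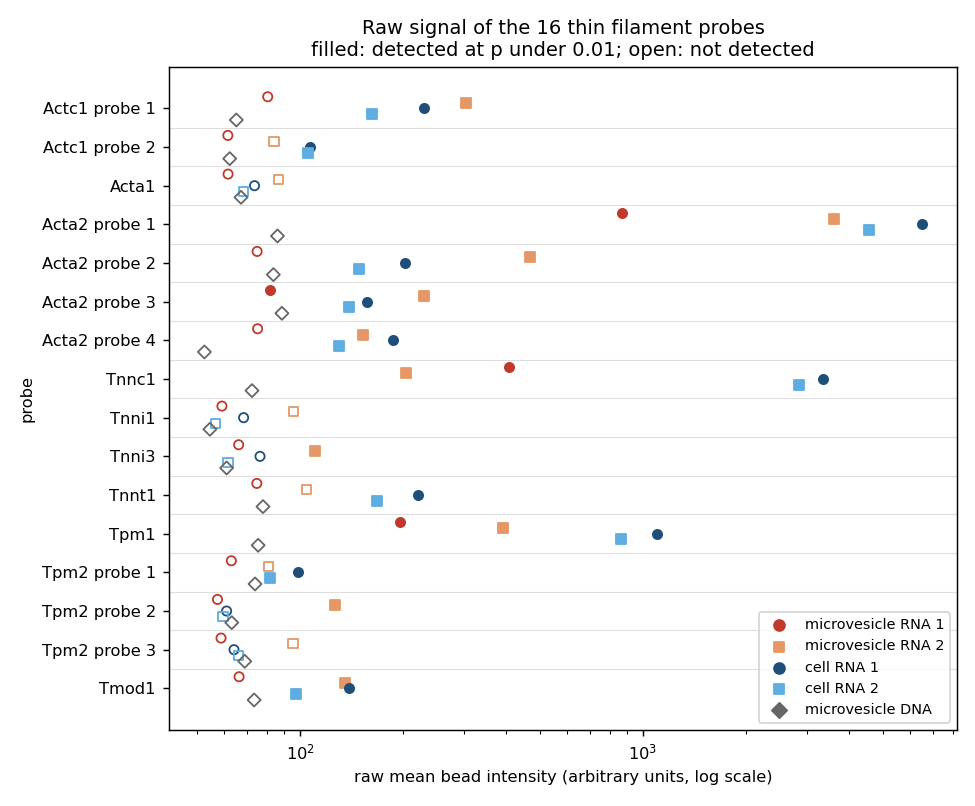
Raw mean bead intensity (arbitrary units, log axis) of the 16 thin filament probes on the 5 arrays, with filled symbols where the detection p was under 0.01. Acta2 probe 1, Tnnc1 and Tpm1 stood out on microvesicle RNA array 1 and both cell arrays. On microvesicle RNA array 2 only Acta2 probe 1 did. Tnnc1 (203) lay below Acta2 probe 2 (469), Tpm1 (390), Actc1 probe 1 (305) and Acta2 probe 3 (230) there. The DNA array had no filled symbol.

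Over the whole array, vesicle detection was more common for probes that were bright in the cells. With a limit set at a log2 value of 8 after the values were seen, Acta2 probe 1, Tnnc1 and Tpm1 lay above it in the cells, and all 3 were detected on both microvesicle arrays (background 84.3% of 941 such probes). Of the 8 tested probes below that limit 1 was detected on both, Acta2 probe 3 (background 29.2% of 2529). Among these 8, detection did not follow the order of the cell signal. The mean cell log2 value was 6.60 for Acta2 probe 3 and 7.05 for Tnnt1, which was on neither microvesicle array. Each bead mean had a standard error of 3.03% to 7.77% of its signal over the 16 probes and 5 arrays.

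The promoters of the 3 actin genes are shown because these genes have different detection in the same cells, although each is a known target of serum response factor, which binds the CArG box. Each line gives the 250 bases before a transcript start in RefSeq (GRCm38.p6), 5′ to 3′ on the gene's strand. For Acta2 this start lies inside the gene's annotated span, so most of its window does too. Capitals mark a CArG box with at most 1 base outside A and T in its core. The Acta2 window is chr19:34255374-34255623 (minus strand), the Actc1 window is chr2:114052876-114053125 (minus strand) and the Acta1 window is chr8:123894776-123895025 (minus strand).
Acta2: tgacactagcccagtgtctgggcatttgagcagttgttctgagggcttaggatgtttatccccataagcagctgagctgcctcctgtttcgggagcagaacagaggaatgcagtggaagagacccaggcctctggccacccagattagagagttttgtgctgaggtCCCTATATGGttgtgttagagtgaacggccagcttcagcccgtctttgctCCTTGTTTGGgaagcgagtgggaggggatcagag
Actc1: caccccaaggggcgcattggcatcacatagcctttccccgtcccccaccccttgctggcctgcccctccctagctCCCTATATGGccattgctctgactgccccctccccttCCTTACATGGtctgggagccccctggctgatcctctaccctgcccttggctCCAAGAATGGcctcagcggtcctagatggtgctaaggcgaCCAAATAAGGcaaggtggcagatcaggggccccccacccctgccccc
Acta1: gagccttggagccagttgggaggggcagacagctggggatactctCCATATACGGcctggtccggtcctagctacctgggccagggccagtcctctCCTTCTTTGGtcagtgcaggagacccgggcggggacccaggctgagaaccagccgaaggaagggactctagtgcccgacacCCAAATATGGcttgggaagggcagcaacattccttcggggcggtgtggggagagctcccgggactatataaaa
The Acta2 window held 2 such boxes, the Actc1 window 4 and the Acta1 window 3, and the search reads both strands since the box is its own reverse complement in form. An exact box was in the Actc1 and Acta1 windows (CCAAATAAGG and CCAAATATGG), and in 1.47% of all 32851 promoter windows of this length. A box with at most 1 substitution was in 8.59% of them. In the 8 windows of the other 7 genes no such box was found, which says only that these letters are not there.

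Acta2, the smooth muscle alpha-actin gene, which young and cultured cardiomyocytes also use, was the member with the brightest probe in cells and vesicles. It lies on chromosome 19 (34240336 to 34255585, GRCm38.p6) and had 4 probes, numbered here by mean level over the RNA arrays. Probe 1 (ILMN_2693895) gave raw signals of 869.7 and 3600.5 on microvesicle RNA arrays 1 and 2 and of 6495 and 4562 on the cell arrays. It was detected on all 4, at ranks 86 and 92 of 25697 in the vesicles and 51 and 56 in the cells. The vesicle arrays, far apart in raw signal, were thus close by rank within each array. Normalized log2 values were 11.47 and 11.41 in vesicles and 12.20 and 12.02 in cells, and the groups did not overlap. The difference was -0.68 ± 0.33 (moderated SE, n = 2 per group), lower than both cell arrays in each vesicle array and not past the threshold (limma adjusted p = 0.266). With median scaling it was -1.74 ± 0.72, a wider spread than with quantile normalization. In bulk extracts fewer vesicles carrying a transcript and fewer copies per vesicle cannot be told apart.

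The other Acta2 probes were dimmer and did not all follow probe 1. Probe 4 (ILMN_2710353) had raw signals of 75.2 and 153 in vesicles and 187 and 130.3 in cells, and missed detection on microvesicle RNA array 1. Its log2 values of 5.83 and 5.68 lay below both cell values of 6.77 and 6.60, a difference of -0.93 ± 0.33 (limma adjusted p = 0.182). On microvesicle RNA array 2 probes 1 and 4 were thus both lower than the cells, at -0.71 and -1.01 from the cell mean. On array 1 probe 4 was under detection, so its amount there cannot be read. Probe 3 (ILMN_2710354), with raw signals of 81.6 and 230.3 in vesicles and 157 and 139 in cells, was detected on all 4. Its log2 values of 6.59 and 6.75 in vesicles overlapped the 6.49 and 6.72 of the cells, a difference of 0.06 ± 0.34 (adjusted p = 0.908) that was -0.55 with median scaling. Probe 2 (ILMN_2923445) split the vesicle arrays. Its raw signals were 75.0, not detected, and 469 in vesicles against 203 and 148 in cells. Its log2 value stood at -1.08 from the cell mean on microvesicle RNA array 1 (5.79) and at 1.35 on array 2 (8.22), so the mean of 0.13 ± 0.96 (adjusted p = 0.932) describes neither array. All 4 probes carry the same transcript accession in the annotation. Their sequences were not used here, so the stretch each reads and its specificity among the near-identical actins were not tested.

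Actc1, the cardiac alpha-actin gene (chromosome 2, 114047282 to 114052875), had 2 probes that disagreed. Probe 1 (ILMN_2598916) gave raw signals of 80.5 and 305 in vesicles and 230.5 and 163 in cells. Microvesicle RNA array 1 missed detection narrowly, at a signal of 80.5 against 80.7 for the lowest detected probe of that array. Array 2, at 7.39 on the log2 scale, lay above both cell arrays (7.12 and 7.00), and array 1, at 6.50, lay below them. The difference was -0.11 ± 0.46 (limma adjusted p = 0.883), and -0.83 with median scaling. Probe 2 (ILMN_2767216) was detected in the cells, with raw signals of 107 and 106, and on neither microvesicle array, with 61.6 and 84.0. Its cell level was at least 1.23-fold higher than the mean vesicle level (limma adjusted p = 0.105). On microvesicle RNA array 1 the lowest detected log2 value, 6.51, lay above both cell values of 5.81 and 6.18. The bound therefore rests on array 2, and array 1 cannot be read. Read on microvesicle RNA array 2 alone, the probes gave opposite answers: probe 1 was among the detected and probe 2 was at background.

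Disagreement of this size was common on the array. Over the 439 genes with several tested probes, the differences of a gene's probes spanned a median of 0.98 on the log2 scale, and 118 such genes had probes of opposite sign. The span was 1.47 for Actc1, and 33.5% of these genes had one as large. It was 1.06 for Acta2, and 45.8% had one as large. Acta1, the skeletal alpha-actin gene (chromosome 8, 123891758 to 123894775), was not detected on any array. Its raw signals were 61.7 and 86.7 in vesicles, 73.7 and 68.5 in cells and 67.3 on the DNA array.

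Tnnc1, which encodes the troponin C of slow and cardiac muscle, had a bright probe in the cells and the widest split between the vesicle arrays. The gene lies on chromosome 14 (31208312 to 31211729). Raw signals of its 1 probe were 408 and 203 in vesicles and 3340.0 and 2859.6 in cells, and it was detected on all 4 RNA arrays. It ranked 108 and 97 of 25697 in the cells, 197 on microvesicle RNA array 1 and 2116 on array 2. Log2 values were 10.39 and 6.43 in vesicles and 11.24 and 11.34 in cells, so both vesicle values lay below the cells. The difference was -2.88 ± 1.51 (limma adjusted p = 0.291), with -0.90 within chip 1 and -4.86 on array 2. Of the 11 tested probes this one had the largest SE. Without either microvesicle array it passed the threshold (adjusted p = 0.00611 without array 2 and 2.5e-05 without array 1), where the spread comes from the cell arrays alone.

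The other troponin genes were dim. Tnnt1, the slow skeletal troponin T gene (chromosome 7, 4504569 to 4515975), was detected on both cell arrays, with raw signals of 221 and 167. Both microvesicle arrays, with 74.8 and 105, were below detection. The cell level was at least 2.55-fold higher (limma adjusted p = 0.133), and the cell arrays were nearly equal on the log2 scale, at 7.05 on both. Tnni3, the cardiac troponin I gene of the adult heart (chromosome 7, 4518305 to 4522718), was detected on microvesicle RNA array 2 alone, with a raw signal of 111. That signal lay just above the 109.8 of the lowest detected probe there. On the other arrays Tnni3 gave 66.2 (microvesicle RNA array 1), 76.5 and 61.7 (cells) and 61.1 (DNA). Tnni1, the slow skeletal troponin I gene of the fetal heart (chromosome 1, 135783033 to 135810989), was not detected on any array, with raw signals of 59.2 and 96.0 in vesicles and 68.5 and 56.9 in cells. Neither troponin I gene was thus detected in these cells at this signal over background.

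Tpm1, the alpha-tropomyosin gene (chromosome 9, 67022590 to 67049672), was detected on all 4 RNA arrays. Its 1 probe gave raw signals of 196 and 390.3 in vesicles and 1098 and 861 in cells, at ranks 474 and 1036 in the vesicles and 387 and 369 in the cells. Log2 values were 9.18 and 7.86 in vesicles and 9.49 and 9.57 in cells. Both vesicle arrays lay below both cell arrays, at -0.35 and -1.68 from the cell mean, and the difference was -1.01 ± 0.59 (limma adjusted p = 0.322). With median scaling it was -2.16 (adjusted p = 0.0236). The gene has 38 RefSeq transcripts, and which of these splice forms the probe reads was not tested.

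Tpm2, the beta-tropomyosin gene (chromosome 4, 43513726 to 43523583), had 3 probes near background. Probe 1 (ILMN_2787172) was detected on the cell arrays, with raw signals of 98.6 and 81.8, and on neither microvesicle array, with 63.1 and 81.1 (limma adjusted p = 0.134). No fold is given, since the cell level lay below the mean of the lowest detected values of the vesicle arrays. Probe 2 (ILMN_2487170) showed the reverse. It was detected on microvesicle RNA array 2 alone, at 126, against 57.5 on array 1 and 61.1 and 59.6 in the cells. Probe 3 was not detected on any array, and its raw signals lay between 58.8 and 95.4.

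Tmod1, the tropomodulin that caps thin filaments in heart muscle (chromosome 4, 46038940 to 46116032), gave raw signals of 66.4 and 135 in vesicles and 139 and 97.5 in cells. It was detected on microvesicle RNA array 2 and both cell arrays. Its log2 values of 4.65 and 5.36 in vesicles lay below the 6.29 and 6.01 of the cells. The difference was -1.14 ± 0.43 (limma adjusted p = 0.197). The value on microvesicle RNA array 1 was at background. The lowest detected log2 value of that array, 6.51, lay above both cell values. Whether array 1 was below the cells, and the order of the vesicle arrays, therefore cannot be read. The lower vesicle level of Tmod1 rests on array 2.

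**Figure D2:**
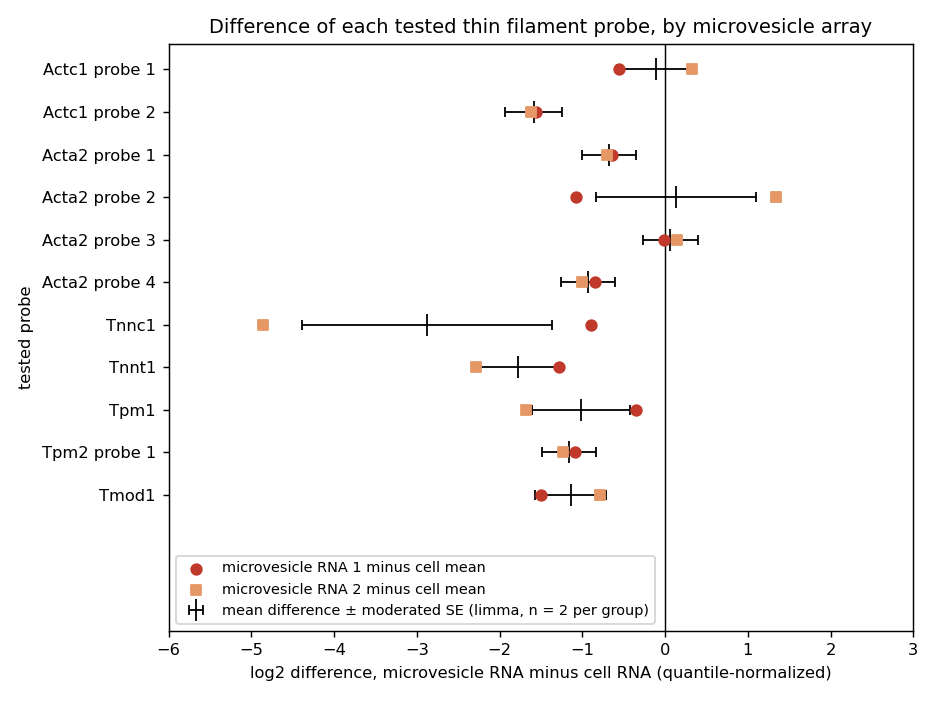
Log2 difference of each of the 11 tested probes on microvesicle RNA array 1 (circles) and array 2 (squares) from the cell mean, with the mean difference and its moderated SE (limma, n = 2 per group). Actc1 probe 1 and Acta2 probe 2 have arrays on opposite sides of 0 by clear margins, and Tnnc1 spans from -0.90 to -4.86. The vesicle values of Actc1 probe 2, Tnnt1 and Tpm2 probe 1 are at background, so their plotted differences cannot be read as amounts. The bounds are at least 1.23-fold for Actc1 probe 2 and at least 2.55-fold for Tnnt1, with none for Tpm2 probe 1.

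Across the 11 tested probes, vesicle values were lower than cell values without overlap for 8 (background 51.6% of tested probes, and 56.5% of probes detected on both cell arrays) and higher without overlap for 0 (background 14.4% and 12.9%). Of these 8, only Acta2 probe 1, Tnnc1 and Tpm1 were detected on both microvesicle arrays. For Actc1 probe 2, Tpm2 probe 1 and Tmod1 the lowest detected log2 value of array 1, 6.51, lay above both cell values. Their place on array 1 cannot be read. The median difference of the 11 was -1.01, against -0.87 over all 3878 tested probes and -1.05 over the 3470 probes detected on both cell arrays. On microvesicle RNA array 1 the medians were -0.90 for the 11 and -0.44 for the 3470, and on array 2 they were -1.01 and -1.48. The 11 probes thus lay below that background on array 1 and above it on array 2, and this was not tested. In limma 0 of the 11 were higher and 0 lower at an adjusted p under 0.05 (background 0% in each direction). At an unadjusted p under 0.05, 3 were lower (background 23.2%) and 0 higher (background 5.52%). The 3 were Actc1 probe 2, Tnnt1 and Tpm2 probe 1, which are the 3 at background on both vesicle arrays.

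**Figure D3:**
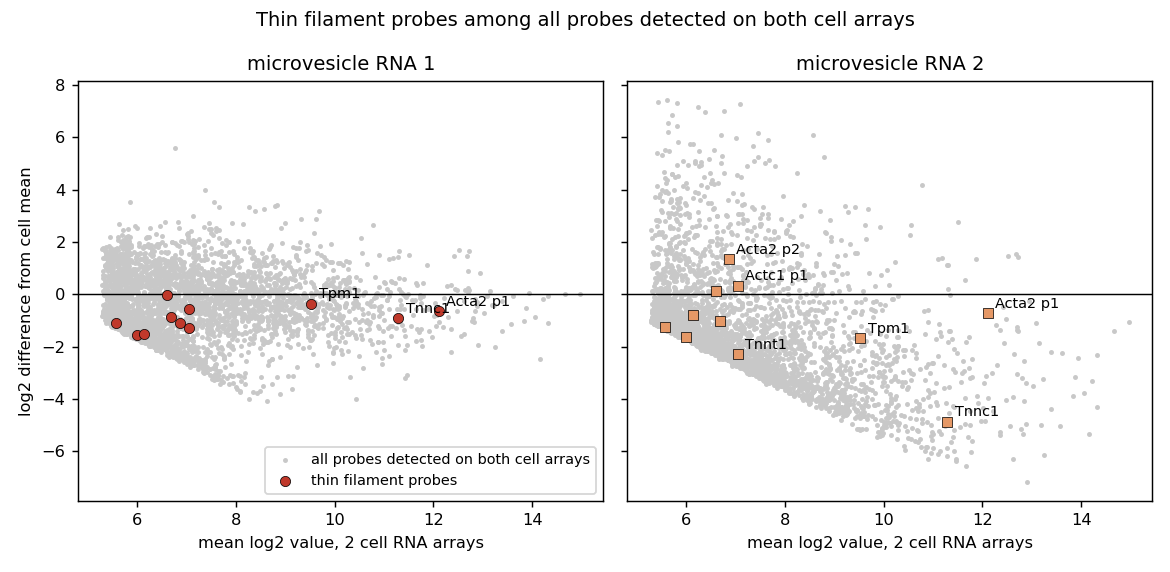
Log2 difference from the cell mean against mean cell log2 value for the 3470 probes detected on both cell arrays (grey) and the 11 tested thin filament probes (coloured), for microvesicle RNA arrays 1 and 2. The sloping lower edge is the background of each vesicle array. Tnnc1 moves from the cloud's middle on array 1 towards that edge on array 2. Acta2 probe 1 stays at -0.65 and -0.71 with quantile normalization.

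These counts depended on the spread and scaling used. Within chip 1, which compares microvesicle RNA array 1 with the cells and takes its spread from the cells alone, limma called 9 of the 11 lower (background 44.7%) and 0 higher (background 25%). The exceptions were Acta2 probe 3 (-0.015) and Tpm1 (-0.35). Of the 11, only these, Acta2 probe 1 and Tnnc1 were detected on microvesicle RNA array 1. All others lay under the 6.51 of its lowest detected probe, so their amounts there cannot be read. Limma thus called lower mainly probes that were under detection on that array. Without microvesicle RNA array 1 it called 8 lower (background 70.1%) and 1 higher, Acta2 probe 2 (background 17.3%). Median scaling called 4 lower (background 42.6%), namely Actc1 probe 2, Tnnc1, Tnnt1 and Tpm1, and 0 higher (background 0.181%). A variance trend called 2 lower (background 17.5%), Actc1 probe 2 and Tpm2 probe 1, and 0 higher (background 0.258%). Median scaling moved the median of all tested probes from -0.87 to -1.28, and measured from that median the 11 stood at 0.0083, against -0.14 with quantile normalization. The plot of the 4 scalings shows where a probe's sign rests on this choice.

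**Figure D4:**
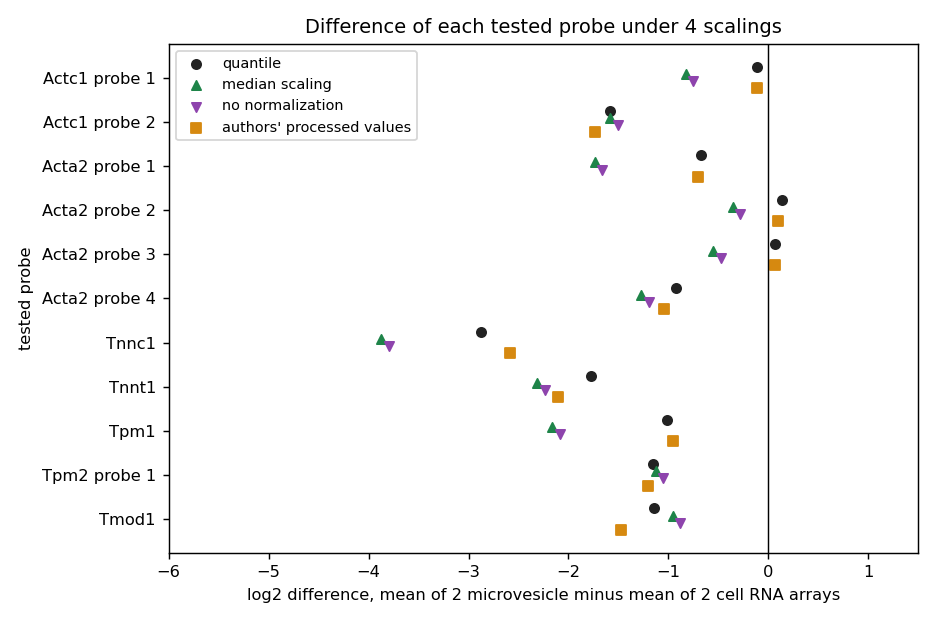
Mean log2 difference of each of the 11 tested probes with quantile normalization, median scaling, no normalization between arrays and the authors' processed values. Acta2 probes 2 and 3 are above 0 with quantile normalization and the authors' values and below 0 with the other scalings, and the other 9 probes are below 0 with all 4.

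Of the 26 other thin filament and thin filament-associated genes listed, 21 had a probe and 7 were tested. By the brightest tested probe of each gene, vesicle values were lower than cell values without overlap for 7 of the 7 (background 51.6% of tested probes, and 56.5% of probes detected on both cell arrays). In limma 0 passed the threshold (background 0%), with 1 lower (background 23.2%) and 0 higher (background 5.52%) at an unadjusted p under 0.05. Of their 12 tested probes, 1 probe each of Actb and Nrap overlapped the cells. The median difference of the 7 genes was -2.12, against -0.87 over all tested probes and -1.05 over the 3470 probes detected on both cell arrays. These backgrounds were not matched for cell signal. Of the 3470, 2529 had a mean cell log2 value under 8, while Actb, Mybpc3, Actn2, Capzb and Cfl2 lay above 8. Whether the lower values are particular to the 7 genes was not tested. The cytoplasmic actin gene Actb had the brightest probe among them, with raw signals of 1068 and 628 in vesicles and 22508 and 19968 in cells, a difference of -3.91 ± 1.13 (limma adjusted p = 0.138). Its differences from the cell mean were -2.46 on microvesicle RNA array 1 and -5.35 on array 2, where those of Acta2 probe 1 were -0.65 and -0.71. These values are from quantile normalization, and the difference between these actins was not tested. Further Actb probes gave -4.72 ± 1.27 and -1.48 ± 1.08. Mybpc3, the cardiac myosin-binding protein C gene, was at -3.32 ± 1.48 (adjusted p = 0.244), and Actn2, the Z-disc alpha-actinin that anchors thin filaments, at -2.05 ± 1.28. Capzb, which caps the end of the filament held in the Z-disc, was at -2.39 ± 1.44 by its brightest probe, and the muscle cofilin gene Cfl2 was at -2.12 ± 0.93. Nrap, an actin-binding protein of forming myofibrils, was at -1.42 ± 0.76 by its brightest probe and at -0.27 ± 0.52 by its other tested probe. The other cytoplasmic actin gene, Actg1, was on neither microvesicle array. Its cells were at least 1.09-fold higher, a bound that rests on array 2. On array 1 the lowest detected log2 value, 6.51, lay above both of its cell values (5.82 on each array). The place of Actg1 among the 7 thus rests on array 2 too. For Actb, Mybpc3, Actn2, Capzb and Cfl2, as for Tnnc1, microvesicle RNA array 2 was the lower of the vesicle arrays. Tnnt2, Tpm4, Neb, Lmod3 and Xirp2 were not analysed here.

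Over the 4 RNA arrays, the 5 tested genes whose centred log2 values were most like those of Acta2 probe 1 were Ckmt2, Coq5, Cdk2, Gnai2 and Bccip. Ckmt2, the mitochondrial creatine kinase gene of striated muscle, was nearest, at a Euclidean distance of 0.080 on the log2 scale. The others lay between 0.108 and 0.154. Their differences between vesicles and cells ranged from -0.71 to -0.59, and with 4 arrays many probes can come this close. On microvesicle RNA array 1 all 5 were under detection. Their log2 values there were 4.73 to 5.77, under the 6.51 of its lowest detected probe, where Acta2 probe 1 was at 11.47.

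The microvesicle DNA array detected 0 of the 16 probes (background 1.33% of all probes). At so low a background share, 0 of 16 says little about these genes. The raw signals of the 16 lay between 52.6 and 88.6, around that array's median of 70.2, and their detection p-values between 0.0351 and 0.964. Acta2 probe 1 gave 86.0 there against 869.7 and 3600.5 on the microvesicle RNA arrays, and Tnnc1 gave 72.4 against 408 and 203. The lowest detection p of the 16 was that of Acta2 probe 3, whose signal of 88.6 was below the 93.5 of the lowest detected probe. With 1 array there was no test.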

How the data were processed

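The 5 extracts were labelled with the Illumina TotalPrep kit and hybridised to 1-colour mouse BeadChips, per the labels' protocols. The first deposited table gives, per the file headers, a probe's mean bead intensity (not background-subtracted), its bead standard error, the number of beads (median 41 on each array) and a detection p-value, which moves in steps of 1 in 798. The second holds the authors' processed intensity values, which look linear and background-subtracted, by a method not stated in the sources used here. The submitters' processing notes name BeadStudio 3.3.

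Deposited raw intensities of the 4 RNA arrays were processed with neqc in limma 3.58.1 (R 4.3.3): normal-exponential background correction with controls inferred from detection p-values, an offset of 16, quantile normalization and log2. The offset compresses differences of dim probes. Probes with detection p under 0.01 on at least 2 RNA arrays entered lmFit and eBayes (two-sided, Benjamini-Hochberg over 3878 probes, threshold 0.05), with no block. The fit was tested on simulated data with an equal spread in both groups, which the microvesicle and cell arrays here do not have. Where both arrays of a group missed detection, the fold is a bound: the bright group's mean against the dim group's mean of, per array, the higher of its own value and the lowest detected value. Probe numbers follow mean level over the RNA arrays. The number of arrays limits precision. Gene symbols came from the platform annotation, and all 10 matched RefSeq (GRCm38.p6). The members, lists and tests were chosen with earlier results of these data known. The rule for named genes took every member probe, the other listed thin filament genes detected on at least 2 RNA arrays, and the 5 genes most like the brightest member probe. Alternatives covered scaling, background, filter, offset, variance trend, blocks and single arrays left out.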

Additional observations from a re-analysis of the deposited data

How the results depend on the processing

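The number of all tested probes that passed (0 higher and 0 lower) moved to 7 and 1651 with median scaling, 5 and 1416 with no normalization, 16 and 163 with no filter, 35 and 464 with the authors' processed values, 10 and 677 with a variance trend and 968 and 1735 with chip as a block. On leaving out 1 array it ranged from 0 to 968 higher and from 0 to 2720 lower. The median difference of the thin filament probes (-1.01) was -1.27 with median scaling, -1.20 with no normalization, -0.54 with no filter (16 probes), -0.85 over the 4 probes detected on all RNA arrays, -0.58 with no background correction, -0.66 with an offset of 50 and -0.90 with chip as a block. Leaving out 1 array gave -1.01 to -0.90. Measured from all tested probes, that median was -0.14. It was -0.53 without microvesicle RNA array 2, 0.29 without array 1, -0.62 at a detection p under 0.05 and -0.55 with no filter. The count below both cell arrays (8) was 3 of those 4 probes, and 8 to 10 on leaving out 1 array, with 0 to 3 above. At a detection p under 0.05, 8 probes were detected on microvesicle RNA array 1 and 1 on the DNA array.

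Signs turned for 3 probes, all near 0 in the main result. Acta2 probe 3 was at -0.55 with median scaling, -0.48 with no normalization and -0.015 with chip as a block, and from -0.050 to 0.18 on leaving out 1 array. Acta2 probe 2 was at -0.36, -0.28 and -1.08 under the same settings, and from -1.08 to 1.35 on leaving out 1 array. Actc1 probe 1 was at -0.83 with median scaling and -0.75 with no normalization, and ranged from -0.56 to 0.33 on leaving out 1 array. The cause was not tested.

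The deviations of same-numbered arrays correlated at -0.24 across tested probes. Each group had few arrays, and the microvesicle RNA arrays were on different chips. Whether replicate numbers pair the arrays therefore cannot be decided from this value. With the replicate block 0 probes were higher and 0 lower. The thin filament median stayed at -1.01, which a block balanced over the groups cannot change. Crossed numbers, an alternative chosen after seeing the data, also gave 0 and 0.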

Other observations

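Acta2 is also a smooth muscle marker, and 7 smooth muscle marker genes were listed. Besides Acta2, the cells detected Des, Smtn and Tagln, of which Des, the muscle intermediate filament gene, is also expressed in cardiomyocytes. Myh11, Cnn1 and Lmod1, the smooth muscle myosin heavy chain, calponin and leiomodin genes, were not detected on any array. Des was at -0.80 ± 0.38 in microvesicles against cells (limma adjusted p = 0.262), close to Acta2 probe 1, and was detected on both microvesicle arrays, with raw signals of 116 and 322 against 532 and 475 in the cells. Smtn was at -2.15 ± 0.92 (adjusted p = 0.230), and Tagln was on neither microvesicle array, with cells at least 1.95-fold higher (adjusted p = 0.133). The summed raw signal of the brightest probe of each of the 7 genes was 1359 and 4407 in vesicles and 8042 and 5819 in cells, most of it from Acta2. Their part in the Acta2 values was not tested.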
